A study of Homo sapiens with 8 samples.

Results

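Enterocyte brush border and absorptive genes are here 36 genes named for the microvillar surface, transport and lipid uptake of mature small-intestinal enterocytes and colonocytes, taken by symbol from a table of 18656 genes. All 36 were in the table, and 21 of them reached a TPM of 1 (TPM is a length-normalised share of the library) in at least 2 of the 8 libraries. SW480, an established human colorectal cancer line, was transfected with small interfering RNA (siRNA). The libraries were 2 of cells given siRNA against TCF7L2 for 24 h, 2 for 48 h and 2 for 72 h, and 2 of cells given a negative-control siRNA and labelled 0 h. TCF7L2 encodes a TCF/LEF transcription factor, the DNA-binding partner of beta-catenin in Wnt signalling. Total RNA was sequenced after ribosomal RNA removal. The control was taken at 0 h only, so siRNA and time in culture cannot be told apart in any comparison with it. The cells were sequenced in bulk, where fewer cells expressing a gene and less RNA per cell cannot be told apart.

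The brush border is the carpet of microvilli on the apical face of absorptive intestinal cells. Each microvillus has a core of bundled actin, joined to the membrane by ezrin and class I myosin, and neighbouring tips are held together by protocadherins anchored to harmonin and a class VII myosin. Digestive hydrolases, ion exchangers and transmembrane mucins sit in that membrane, and absorbed lipid is bound in the cytoplasm and packed into lipoproteins. These genes are switched on as cells leave the intestinal crypt, where Wnt signalling is high.

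The values below are the authors' TPM divided by a factor for each library (scaled TPM). The factors were 0.982 to 1.07 in 7 libraries and 0.818 in the second 72 h library, whose listed TPM summed to 352455.7 against 448107.5 to 485601.5 in the others. Log2 changes are of scaled TPM + 1, given ± SE with limma's p adjusted over all genes kept by the Benjamini-Hochberg (BH) method. TCF7L2 had 6.5 and 7.02 scaled TPM in the control libraries, 5.83 and 5.14 after 24 h of siRNA, 4.66 and 3.82 after 48 h, and 3.88 and 4.31 after 72 h. Its log2 change against 0 h was -0.26 ± 0.11 at 24 h (BH-adjusted p = 0.286), -0.57 ± 0.11 at 48 h (BH-adjusted p = 0.00653) and -0.61 ± 0.11 at 72 h (BH-adjusted p = 0.00151). The epithelial markers EPCAM, CDH1, KRT8, KRT18 and KRT19 were all present, and their summed level was 3680 to 3850 scaled TPM at 72 h, against 2860 to 2890 at 0 h.

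At 24 h against 0 h, 3 of the 21 members kept were higher and 0 lower, where 1.04% of all 11894 genes tested were called (0.614% higher and 0.429% lower). At 48 h, 12 were higher and 1 lower (61.9% called), where 23.4% of all genes were called (11.4% higher and 12% lower). At 72 h, 14 were higher and 2 lower (76.2% called), where 52.2% of all genes were called (24.2% higher and 28% lower). The 3 comparisons share the control libraries. The median log2 change of the members kept was 0.19, 0.59 and 0.58 at 24, 48 and 72 h, and that of all genes was -0.00, -0.02 and -0.02. MYO7B and MYO1A passed the filter through siRNA libraries alone, so their calls say nothing about the list as a whole. A set chosen after seeing the data held the 16 members with 1 TPM or more in both control libraries. Of these 16, 3, 9 and 11 were higher at the 3 times and 0, 1 and 2 lower. Over all 11313 genes kept by that rule, 0.628, 10.6 and 22.6% were higher and 0.451, 12.7 and 29.3% lower. On TPM as deposited the counts for the 21 members were 2, 11 and 12 higher and 0, 0 and 2 lower. There the median of all genes lay at -0.09, -0.02 and -0.19, and the calls over all genes split into 25 higher and 30 lower, 548 and 374, and 1253 and 3715, against 73 and 51, 1350 and 1433, and 2880 and 3333 after scaling. Both siRNA libraries of a time lay above both control libraries for 10, 14 and 15 of the 21 members at 24, 48 and 72 h, where 24.9, 30.7 and 35.5% of all genes did. They lay below both for 3, 2 and 2 members, where 24.9, 35.7 and 40.1% of all genes did. The 21 include MYO7B and MYO1A. The summed scaled TPM of the 36 members was 482.3 and 456.1 at 0 h, 512.1 and 489.3 after 24 h, 608.6 and 598.2 after 48 h, and 664 and 638.1 after 72 h. VIL1 made up 25.7 and 24.6% of that sum at 72 h, against 36.6 and 35.8% at 0 h, while its own level did not pass the test. Abundant members weigh most in the sum. Mean scaled TPM at 0 and 72 h was 47.1 and 114 for LGALS3, 47.8 and 80.8 for USH1C, and 60.4 and 38.2 for ESPN, which fell.

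**Figure D1:**
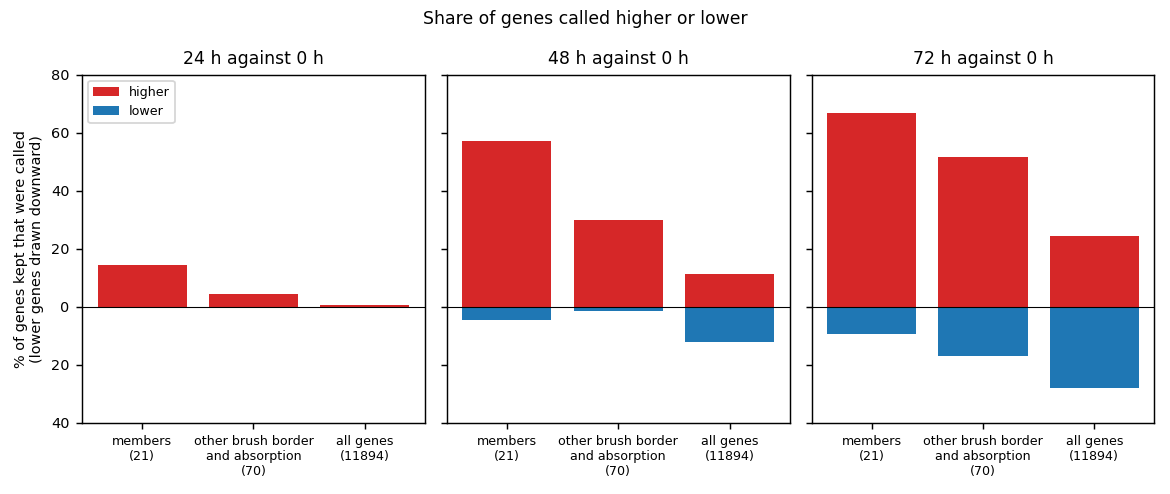
Share of genes called higher (drawn upward) or lower (drawn downward) by limma at adjusted p under 0.05, in % of the genes kept, at 24, 48 and 72 h against 0 h. Of the 21 members 66.7% were higher at 72 h, against 51.4% of 70 other brush border and absorption genes and 24.2% of all 11894 genes. The first share counts MYO7B and MYO1A and the second KRT20, ENPP3, NT5E and AQP7, which passed the filter through siRNA libraries alone.

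The surface adhesion and mucin genes held the largest log2 change of scaled TPM + 1 at 72 h among the members kept, that of MUC13; on scaled TPM itself the lower MYO7B had the larger fold and LGALS3 the larger gain. MUC13, a transmembrane mucin of the gut surface, had 8.44 and 8.54 scaled TPM at 0 h, 9.56 and 9.58 after 24 h, 19.9 and 17.8 after 48 h, and 33.0 and 38.0 after 72 h. Both 48 h libraries lay above both 24 h libraries, and both 72 h libraries lay higher again. Its log2 change against 0 h was 0.16 ± 0.09 at 24 h (BH-adjusted p = 0.403), 1.06 ± 0.09 at 48 h (BH-adjusted p = 7.43e-05) and 1.94 ± 0.09 at 72 h (BH-adjusted p = 2.45e-07). TSPAN8, a tetraspanin of gut epithelium, had 6.75 and 6.37 scaled TPM at 0 h, 9.02 and 9.88 after 24 h, 19.8 and 20.9 after 48 h, and 21.2 and 21.5 after 72 h. The 24 h libraries lay above the controls, and the 48 and 72 h libraries lay close together above them. The log2 change of TSPAN8 was 0.47 ± 0.08 at 24 h (BH-adjusted p = 0.0282), 1.5 ± 0.08 at 48 h (BH-adjusted p = 6.98e-06) and 1.57 ± 0.08 at 72 h (BH-adjusted p = 3.99e-07). CDH17, the liver-intestine cadherin that joins neighbouring enterocytes, had 2.88 and 2.98 scaled TPM at 0 h, 6.22 and 5.18 after 24 h, 8.68 and 8.88 after 48 h, and 9.68 and 9.16 after 72 h. All 6 siRNA libraries lay above both control libraries. Its log2 change was 0.77 ± 0.10 at 24 h (BH-adjusted p = 0.0148), 1.32 ± 0.10 at 48 h (BH-adjusted p = 5.2e-05) and 1.41 ± 0.10 at 72 h (BH-adjusted p = 3.93e-06). TMIGD1, an adhesion molecule of the immunoglobulin superfamily, was at or near 0, with at most 0.05 TPM as deposited.

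Promoter windows are shown for 3 members because of the letters they hold for regulators of intestinal genes. They come from RefSeq on GRCh38.p14 (most of each lies before a start site), which listed 34 windows for 25 members. Capitals mark matches, on either strand, to the TCF/LEF letters CTTTGAT and CTTTGTT, the CDX letters TTTATNG and TTTACNG, the HNF4 letters CAAAGTCCA and CAAAGGTCA, and the short HNF1 letters GTTAAT, and the long HNF1 form, which is GTTAAT, any base and ATTAAC and so holds the short one at either end.
MUC13, chr3:124934702-124935001, minus strand: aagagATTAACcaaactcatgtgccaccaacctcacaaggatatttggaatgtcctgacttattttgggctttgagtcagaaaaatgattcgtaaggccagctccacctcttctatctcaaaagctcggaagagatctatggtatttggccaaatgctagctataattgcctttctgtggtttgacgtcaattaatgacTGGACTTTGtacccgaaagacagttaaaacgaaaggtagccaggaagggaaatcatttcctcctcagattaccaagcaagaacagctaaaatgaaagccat
MYO1A, chr12:57050080-57050379, minus strand: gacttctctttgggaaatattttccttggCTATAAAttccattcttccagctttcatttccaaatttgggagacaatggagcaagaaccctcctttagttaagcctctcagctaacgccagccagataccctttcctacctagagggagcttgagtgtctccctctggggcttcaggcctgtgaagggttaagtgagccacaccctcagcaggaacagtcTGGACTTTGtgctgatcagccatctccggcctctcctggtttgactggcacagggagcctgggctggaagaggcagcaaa
SI, chr3:165078447-165078746, minus strand: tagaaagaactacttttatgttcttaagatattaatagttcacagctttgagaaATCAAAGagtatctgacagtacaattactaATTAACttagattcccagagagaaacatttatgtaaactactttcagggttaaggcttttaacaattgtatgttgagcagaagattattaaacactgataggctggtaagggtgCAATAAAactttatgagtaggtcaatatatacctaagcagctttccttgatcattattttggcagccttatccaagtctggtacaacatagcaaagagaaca
The HNF4 letters CAAAGTCCA were in the windows of MUC13, starting 51 bases upstream of the start site, and of MYO1A, 30 bases upstream, and in 0.384% of all 35116 windows. The other HNF4 letters were in the window of SLC26A3 and in 0.407% of all windows. The short HNF1 letters were in 8 of the 34 member windows and in 6.88% of all windows. These came from 8 members, among them MUC13, SI and TSPAN8, which held 3 copies in 1 window. The long form was in 0 member windows and 0.0057% of all. CTTTGAT was in the windows of SI and SLC26A3 and in 2.62% of all windows, and CTTTGTT was in that of USH1C and in 5.2%. TTTATNG was in 10 of the 34 member windows, from 8 members, SI and MYO1A included, and in 9.73% of all windows. TTTACNG was in 2 member windows, of ALPI and PLS1, and in 8.08% of all windows. These matches are letters in a window and were not measured as bound sites.

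In the intermicrovillar adhesion complex, the scaffold and the motor rose, the protocadherin CDHR2 did not pass the test, and CDHR5 lay below the filter. USH1C, which encodes the scaffold harmonin, had 49.3 and 46.2 scaled TPM at 0 h, 55.4 and 53.5 after 24 h, 70.7 and 74.5 after 48 h, and 84.5 and 77.1 after 72 h. Every siRNA library was above both controls. The log2 change of USH1C was 0.59 ± 0.06 at 48 h (BH-adjusted p = 0.000296) and 0.75 ± 0.06 at 72 h (BH-adjusted p = 1.19e-05). MYO7B, the myosin of that tip complex, had 0.672 and 0.263 scaled TPM at 0 h, 0.441 and 0.682 after 24 h, 1.18 and 2.04 after 48 h, and 3.03 and 4.39 after 72 h. The 24 h libraries overlapped the controls and the later ones did not. The log2 change of MYO7B was 0.83 ± 0.21 at 48 h (BH-adjusted p = 0.0199) and 1.68 ± 0.21 at 72 h (BH-adjusted p = 0.000138). The call at 48 h was lost when the second control library (BH-adjusted p = 0.128) or the second 48 h library (BH-adjusted p = 0.135) was left out, and in the fit without a filter (BH-adjusted p = 0.059). CDHR2, a protocadherin of the tip links, had 5.12 and 3.9 scaled TPM at 0 h, 8.58 and 6.47 after 24 h, 5.07 and 5.4 after 48 h, and 5.51 and 6.17 after 72 h. The highest libraries of CDHR2 were those at 24 h, with a log2 change of 0.63 ± 0.14 (BH-adjusted p = 0.0735), and at 72 h it was 0.32 ± 0.14 (BH-adjusted p = 0.0874). The 72 h value of CDHR2 passed without the first 0 h library (0.48, adjusted p = 0.0393). CDHR5, its partner protocadherin, stayed between 0.57 and 1.22 TPM as deposited and below the filter.

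The genes of the microvillar actin core divided. VIL1, which encodes the actin-bundling protein villin, was the most abundant member, with 176 and 163 scaled TPM at 0 h, 176 and 167 after 24 h, 183 and 176 after 48 h, and 171 and 157 after 72 h. Its 72 h change was -0.05 ± 0.06 (BH-adjusted p = 0.505; 95% interval -0.18 to 0.08). PLS1, the bundler plastin 1, had 21.9 and 20.1 scaled TPM at 72 h, against 20.7 and 22 at 0 h (log2 change -0.02 ± 0.07, adjusted p = 0.8). ESPN, the bundler espin, had 62.7 and 58 scaled TPM at 0 h, 62.1 and 57.6 after 24 h, 56 and 56.2 after 48 h, and 38.1 and 38.2 after 72 h. Its fall lay between 48 and 72 h, and its log2 change at 72 h was -0.65 ± 0.06 (BH-adjusted p = 1.99e-05). ESPN has a pseudogene copy, ESPNP, so its reads may have been split. EPS8, an actin-capping and bundling protein of microvilli, had 24.9 and 26 scaled TPM at 0 h, 28.6 and 25.8 after 24 h, 32.8 and 30.7 after 48 h, and 40.9 and 36.1 after 72 h. It was 0.31 ± 0.08 higher at 48 h (BH-adjusted p = 0.0204) and 0.58 ± 0.08 higher at 72 h (BH-adjusted p = 0.000227). The 48 h call of EPS8 was lost on TPM as deposited (BH-adjusted p = 0.268), without the first or second control library (BH-adjusted p = 0.114 and 0.0639) and without the first or second 48 h library (BH-adjusted p = 0.119 and 0.0528). EZR, which encodes the membrane-to-actin linker ezrin, had 44.6 and 42.9 scaled TPM at 0 h, 40.7 and 41 after 24 h, 48.2 and 45.9 after 48 h, and 64.9 and 60.9 after 72 h. Only its 72 h value passed the test against 0 h (0.51 ± 0.06, adjusted p = 6.16e-05), and on TPM as deposited it did not (0.32, adjusted p = 0.0922). MYO1A, the brush border class I myosin, had 0.9 and 0.611 scaled TPM at 0 h, 1.53 and 1.48 after 24 h, 2.54 and 3.11 after 48 h, and 2.44 and 2.08 after 72 h. All siRNA libraries of MYO1A were above the controls, and its log2 change was 1.13 ± 0.13 at 48 h (BH-adjusted p = 0.000584) and 0.90 ± 0.13 at 72 h (BH-adjusted p = 0.000379). VIL1, SLC9A3, MYO1A, ESPN, CDHR2 and TSPAN8 overlap protein-coding neighbours (USP37, EXOC3, TAC3, TNFRSF25, GPRIN1 and LGR5), and EZR, PLS1, MYO7B, DPP4, CA2 and PRAP1 overlap antisense RNAs. EPS8 overlaps a long noncoding RNA and SLC9A3 the transcript SLC9A3-AS1, both on the opposite strand. TAC3 lies on the same strand as MYO1A and the other neighbours named on the opposite one, and no strand setting is given in the sources used here, so values of these genes are uncertain to that extent.

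**Figure D2:**
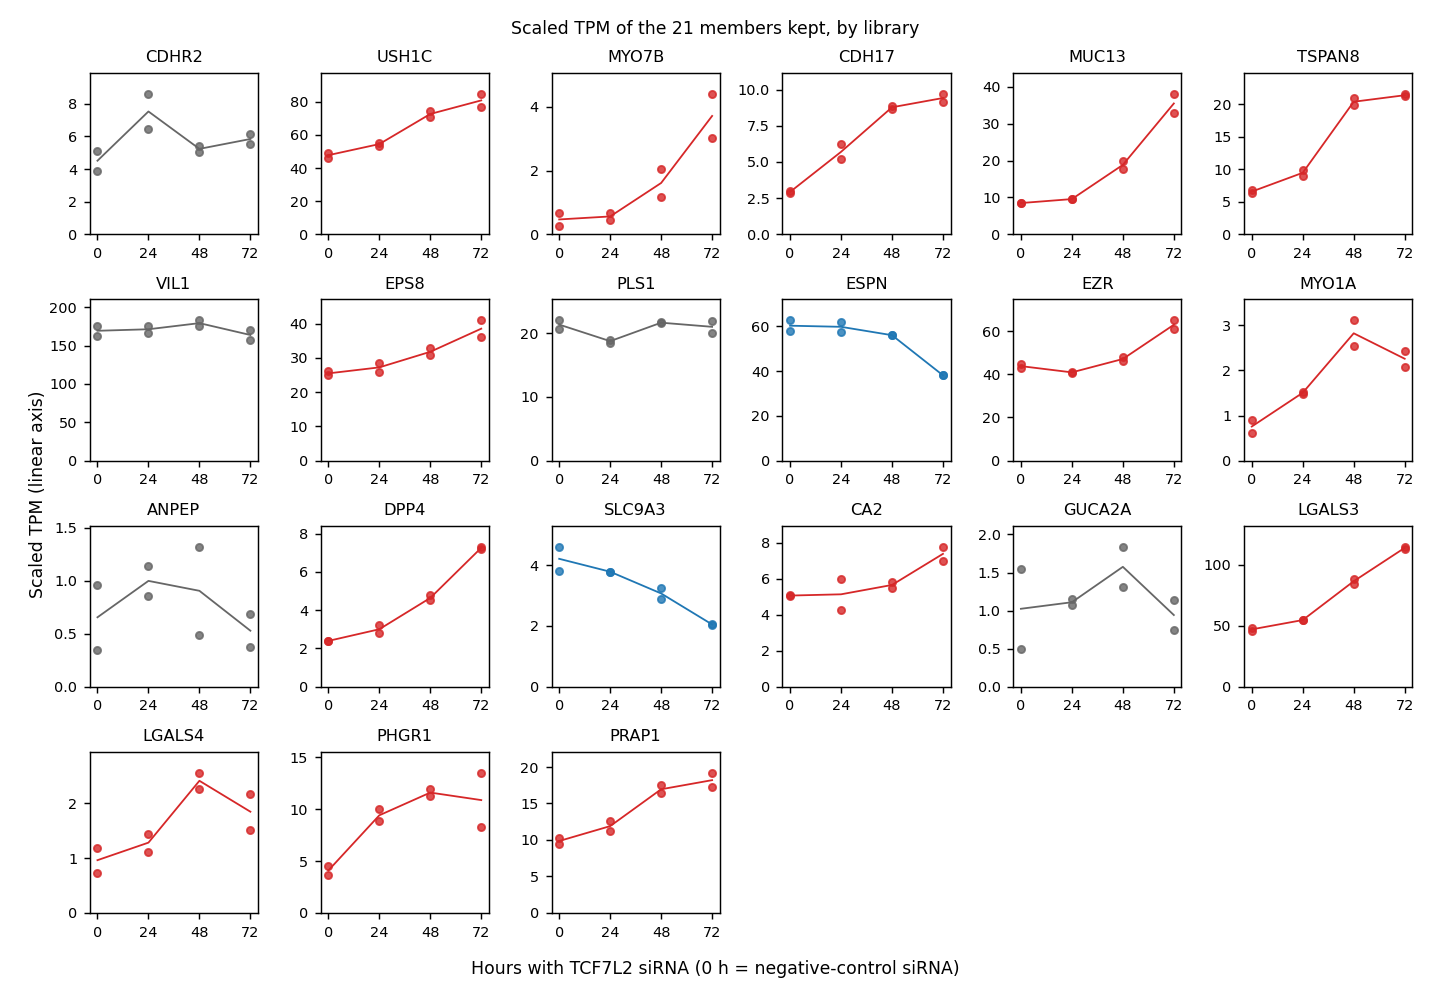
Scaled TPM (y, linear, from 0) of the 21 members kept against hours with TCF7L2 siRNA (x, with the negative control at 0 h). Points are libraries, 2 per time, lines join the means, red and blue mark genes called higher and lower at 72 h against 0 h, and grey the rest. MUC13 reached 33.0 and 38.0 at 72 h, while VIL1 stayed between 157 and 183 throughout.

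Of the brush border hydrolases, DPP4 rose and the others were low. DPP4, a dipeptidyl peptidase that trims dipeptides from peptide ends, had 2.4 and 2.39 scaled TPM at 0 h, 2.79 and 3.22 after 24 h, 4.77 and 4.51 after 48 h, and 7.32 and 7.2 after 72 h. No library of a later time overlapped an earlier one. Its log2 change was 0.73 ± 0.10 at 48 h (BH-adjusted p = 0.00107) and 1.28 ± 0.10 at 72 h (BH-adjusted p = 6.75e-06). ANPEP, which encodes aminopeptidase N, ranged from 0.35 to 1.32 scaled TPM with overlapping groups (72 h change -0.10 ± 0.24, adjusted p = 0.753). SI, the sucrase-isomaltase that digests sucrose and starch fragments, had 0.0474 and 0.0564 scaled TPM at 0 h, 0.0601 and 0.0814 after 24 h, 0.474 and 0.713 after 48 h, and 1.5 and 1.21 after 72 h. SI missed the filter, since 1 of its libraries reached 1 TPM as deposited (1.57 and 0.99 at 72 h), but its 48 and 72 h libraries lay well above all earlier ones. In the fit without a filter, over 17894 genes, SI rose by 0.60 ± 0.09 at 48 h (BH-adjusted p = 0.00924) and 1.16 ± 0.09 at 72 h (BH-adjusted p = 0.000167). ALPI, the intestinal alkaline phosphatase, had 0.63 and 0.55 scaled TPM at 72 h, against 0.303 and 0.338 at 0 h. Its change in the same fit was 0.27 ± 0.05 (BH-adjusted p = 0.00864). ALPI reached at most 0.69 TPM as deposited, and counting error at that level is unknown.

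The ion and water transport genes were mostly near 0. SLC9A3, the apical sodium-proton exchanger NHE3, had 4.61 and 3.81 scaled TPM at 0 h, 3.79 and 3.78 after 24 h, 2.88 and 3.26 after 48 h, and 2.08 and 2.02 after 72 h. It fell by 0.77 ± 0.11 on the log2 scale at 72 h (BH-adjusted p = 0.000333). Its 48 h call (-0.35 ± 0.11, adjusted p = 0.0462) was lost in 11 of 17 alternatives. Among these were leaving out the first or second library of 0 h (BH-adjusted p = 0.266 and 0.052), of 24 h (BH-adjusted p = 0.0697 each) or of 48 h (BH-adjusted p = 0.207 and 0.0845), and the TPM as deposited (BH-adjusted p = 0.206). CA2, a cytosolic carbonic anhydrase, had 5.06 and 5.08 scaled TPM at 0 h, 6 and 4.28 after 24 h, 5.48 and 5.84 after 48 h, and 7.79 and 6.99 after 72 h. Its log2 change at 72 h was 0.47 ± 0.13 (BH-adjusted p = 0.0134). That call was lost on TPM as deposited (BH-adjusted p = 0.13), without the first or second control library (BH-adjusted p = 0.0551 and 0.0538) and without the first 72 h library (BH-adjusted p = 0.0701). GUCA2A, which encodes the secreted peptide guanylin, ranged from 0.498 to 1.84 scaled TPM with overlapping groups (72 h change -0.02 ± 0.23, adjusted p = 0.952). Without the first 0 h library its 48 h change was 0.77 (BH-adjusted p = 0.0361), against 0.39 (BH-adjusted p = 0.245) with it. The other hormone, uroguanylin (GUCA2B), reached at most 0.32 TPM as deposited. The chloride-bicarbonate exchanger SLC26A3, the carbonic anhydrases CA1 and CA4, the water channel AQP8 and CLCA4, all markers of surface colonocytes, had at most 0.19, 0.02, 0.09, 0.04 and 0.01 TPM.

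Of the lipid absorption genes 0 of 5 passed the filter. FABP1, the liver-type fatty acid binding protein, had 0.114 and 0.103 scaled TPM at 0 h, 0.401 and 0.702 after 24 h, 0.559 and 1.36 after 48 h, and 0.887 and 0.342 after 72 h. All siRNA libraries lay above the controls, with wide spread within a time, and its 72 h change in the fit without a filter was 0.52 ± 0.23 (BH-adjusted p = 0.129). FABP2, the intestinal fatty acid binding protein, had 0.21 and 0.293 scaled TPM at 72 h, against 0.0568 and 0.0564 at 0 h. Its change in that fit was 0.24 ± 0.04 (BH-adjusted p = 0.00561). FABP2 reached at most 0.24 TPM as deposited, and counting error at that level is unknown. MTTP, the microsomal transfer protein that loads lipid onto apolipoprotein B, stayed between 0.16 and 0.59 TPM as deposited. APOA4 and APOB, apolipoproteins of chylomicrons, reached at most 0.07 and 0.02 TPM. Just inside the filter, by their second-highest TPM as deposited, lay ANPEP (1.14), GUCA2A (1.64) and LGALS4 (2.39), and just outside SI (0.99), FABP1 (0.93) and CDHR5 (0.72).

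**Figure D3:**
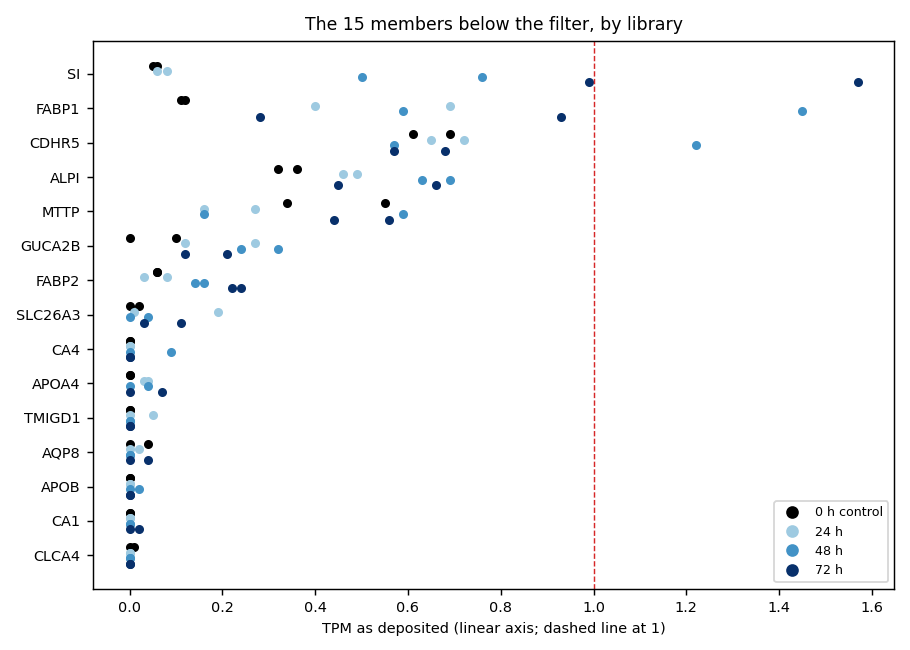
TPM as deposited (x, linear) of the 15 members below the filter, with 1 point per library shaded by time; the dashed line is the filter at 1 TPM. SI, FABP1 and CDHR5 crossed it in 1 library each (1.57, 1.45 and 1.22), and 8 genes never reached 0.2.

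The lectins and secreted or cytoplasmic enterocyte products rose. LGALS3, the widely expressed galectin 3, had 48.5 and 45.7 scaled TPM at 0 h, 54.9 and 54.6 after 24 h, 88.6 and 84.6 after 48 h, and 115 and 113 after 72 h. Each time lay above the one before with no overlap. Its log2 change was 0.21 ± 0.05 at 24 h (BH-adjusted p = 0.0846), 0.87 ± 0.05 at 48 h (BH-adjusted p = 1.72e-05) and 1.26 ± 0.05 at 72 h (BH-adjusted p = 1.71e-07). LGALS4, the galectin of the enterocyte apical membrane, had 0.739 and 1.19 scaled TPM at 0 h, 1.12 and 1.45 after 24 h, 2.27 and 2.56 after 48 h, and 2.18 and 1.52 after 72 h. The highest libraries of LGALS4 were at 48 h. Its log2 change was 0.80 ± 0.16 at 48 h (BH-adjusted p = 0.00695) and 0.53 ± 0.16 at 72 h (BH-adjusted p = 0.019). The 48 h call of LGALS4 was lost without the first 0 h or second 48 h library (BH-adjusted p = 0.0589 and 0.051), and the 72 h call without the first 0 h or first 72 h library (BH-adjusted p = 0.142 and 0.121) or after quantile normalization (BH-adjusted p = 0.0895). PHGR1, a proline-, histidine- and glycine-rich protein of differentiated gut epithelium, had 4.55 and 3.63 scaled TPM at 0 h, 10.0 and 8.82 after 24 h, 11.3 and 11.9 after 48 h, and 8.25 and 13.5 after 72 h. Most of its rise was present at 24 h. PHGR1 changed by 1.04 ± 0.18 at 24 h (BH-adjusted p = 0.0352), 1.31 ± 0.18 at 48 h (BH-adjusted p = 0.00134) and 1.19 ± 0.18 at 72 h (BH-adjusted p = 0.000476). PRAP1, a secreted proline-rich acidic protein, had 9.42 and 10.3 scaled TPM at 0 h, 12.6 and 11.2 after 24 h, 17.5 and 16.4 after 48 h, and 19.2 and 17.2 after 72 h. The log2 change of PRAP1 was 0.72 ± 0.09 at 48 h (BH-adjusted p = 0.000783) and 0.82 ± 0.09 at 72 h (BH-adjusted p = 6.02e-05). PRAP1 is uncertain, since it shares sequence with the readthrough gene ZNF511-PRAP1.

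The 24 h calls rested on few libraries. Those of TSPAN8 and PHGR1 were lost without any 1 of the 6 libraries of 0, 24 and 48 h (BH-adjusted p = 0.0625 to 0.18 for TSPAN8 and 0.067 to 0.213 for PHGR1). The call of CDH17 was lost without the first or second control library (BH-adjusted p = 0.151 and 0.103) or the first 24 h library (BH-adjusted p = 0.0956). In the fit without a filter all 3 were lost (BH-adjusted p = 0.0669 for CDH17, 0.0879 for TSPAN8 and 0.132 for PHGR1), and on TPM as deposited that of TSPAN8 was (BH-adjusted p = 0.504).

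**Figure D4:**
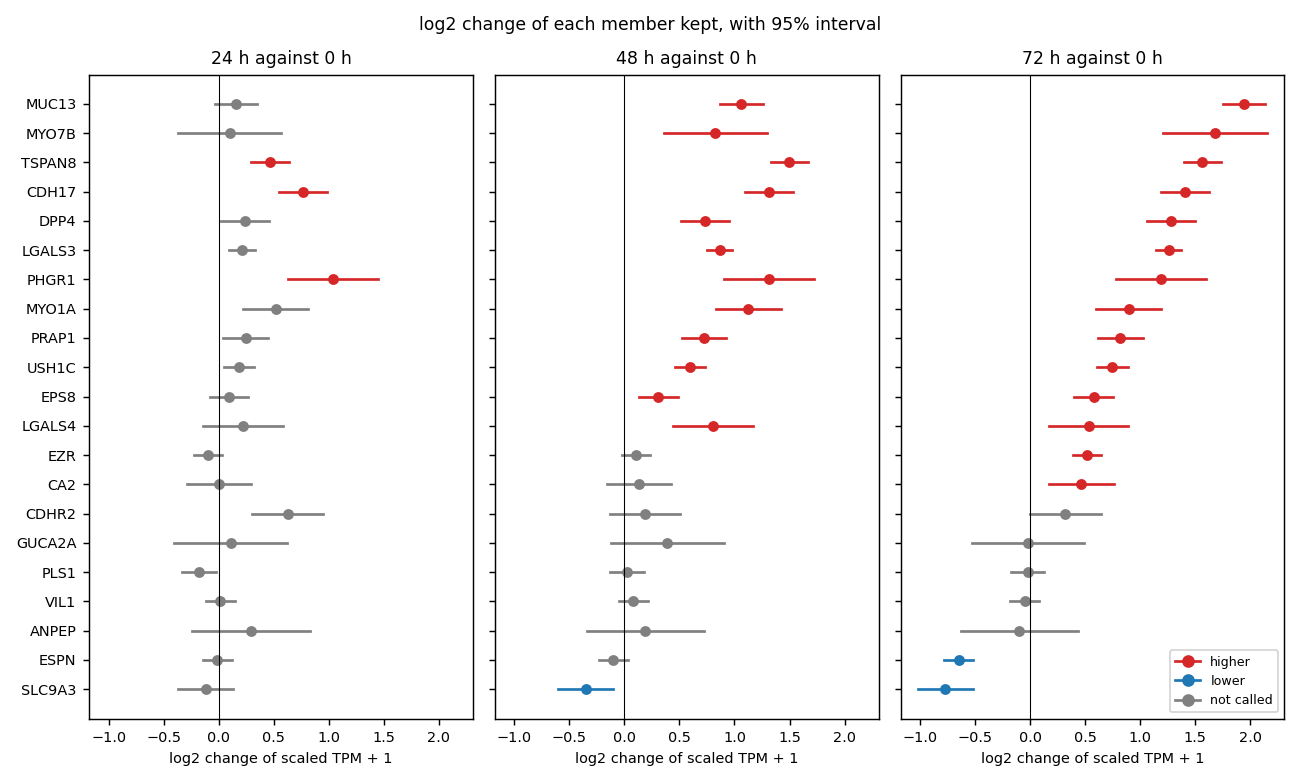
Log2 change of scaled TPM + 1 (x) of the 21 members kept, at 24, 48 and 72 h against 0 h, with 95% intervals; red and blue mark calls at adjusted p under 0.05. At 72 h MUC13 was highest (1.94) and SLC9A3 lowest (-0.77).

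Between siRNA times, MUC13, MYO7B, DPP4, LGALS3 and EZR passed the test in both steps, and TSPAN8, CDH17, PRAP1, USH1C, MYO1A and LGALS4 in the first step alone; the difference between the steps was not tested. At 48 h against 24 h, 11 members were higher and 0 lower (52.4% called), where 14.4% of all genes were called (7.22% higher and 7.15% lower). They were TSPAN8 (1.03 ± 0.08, adjusted p = 9.27e-05), MUC13 (0.91 ± 0.09, adjusted p = 0.000333), MYO7B, LGALS3, MYO1A, LGALS4, CDH17, DPP4, PRAP1, USH1C and EZR. MYO7B reached 1 TPM as deposited only in its 48 and 72 h libraries, so its call in this step says nothing about the list. That call (limma adjusted p = 0.0466) was lost in 10 of 17 alternatives, among them pseudocounts of 0.1 and 5, no filter and quantile normalization. At 72 h against 48 h, 6 were higher and 2 lower (38.1% called), a share near the 40.1% of all genes (19.3% higher and 20.8% lower). MUC13 (0.88 ± 0.09, adjusted p = 8.66e-05), MYO7B (0.85 ± 0.21, adjusted p = 0.0103), DPP4, EZR, LGALS3 and EPS8 were higher, and ESPN (-0.54 ± 0.06, adjusted p = 0.000151) and SLC9A3 (-0.42 ± 0.11, adjusted p = 0.0149) lower. In that step TSPAN8 changed by 0.07 ± 0.08 (BH-adjusted p = 0.511), CDH17 by 0.09 ± 0.10 (BH-adjusted p = 0.488) and PRAP1 by 0.10 ± 0.09 (BH-adjusted p = 0.403). On TPM as deposited 2 members were higher and 3 lower in the last step, the calls of DPP4, EZR, LGALS3 and EPS8 being lost (BH-adjusted p = 0.0689, 0.314, 0.37 and 0.739) and GUCA2A being called lower (BH-adjusted p = 0.0159). The all-gene split of the 2 steps was 512 higher and 85 lower, and 590 and 2621, as deposited, against 859 and 850, and 2300 and 2471, after scaling. Single libraries decided part of the first step: without the first or second 24 h library 6 members were called, and without either 48 h library 7. The calls of MYO7B, LGALS4, EZR, MYO1A, DPP4, PRAP1 and CDH17 were lost without at least 1 library. Over all alternatives that of EZR (limma adjusted p = 0.0444) was lost in 9 of 18, and that of LGALS4 (limma adjusted p = 0.0404) in 8 of 17. Without a filter, or without any 1 of the 24 and 48 h libraries, both calls were lost. In the last step those of MYO7B (BH-adjusted p = 0.0768 and 0.0691 without the first 48 h or second 72 h library), EPS8 (0.128 and 0.117 without the second 48 h or first 72 h library) and SLC9A3 (0.0952 and 0.0553 without the second 48 h or second 72 h library) were lost. Calls gained there without a library were USH1C (BH-adjusted p = 0.0362) and PHGR1 (-0.44, adjusted p = 0.036) without the second 72 h library, VIL1 (-0.19, adjusted p = 0.0399) without the first 72 h library, and CA2 without the first or second 24 h library (BH-adjusted p = 0.0271 and 0.0261). CDHR2 was called lower at 48 h against 24 h without the second 24 h library (-0.62, adjusted p = 0.0485).

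The other genes of the brush border and absorption came from lists of 119 genes in the table, 70 of them kept. At 24, 48 and 72 h against 0 h, 3, 21 and 36 were higher and 0, 1 and 12 lower (4.29, 31.4 and 68.6% called, against 1.04, 23.4 and 52.2% of all genes). KRT20, ENPP3, NT5E, AQP7, AQP3, SOAT2, SLC51A and CIDEB passed the filter through siRNA libraries alone, which favours higher calls. KRT20, ENPP3, NT5E and AQP7 were called higher at 72 h, and KRT20 and AQP3 at 48 h. Those calls support nothing about these lists. SOAT2, SLC51A and CIDEB were not called against 0 h. Among 20 structural genes kept, 14 were higher and 1 lower at 72 h (75% called). The higher ones included CALML4 (1.55 ± 0.11) and ANKS4B (0.97 ± 0.10), which complete the intermicrovillar complex with USH1C and MYO7B. MSN, which encodes moesin (1.40 ± 0.05), was higher too. It was listed only as a paralog of ezrin, so its rise is not taken as a change of the brush border. MSN had 81.9 and 85.6 scaled TPM at 72 h, against 31 and 31.1 at 0 h, and CALML4 24.3 and 20.5 at 72 h, against 6.64 and 7.31 at 0 h. KRT20, a keratin of differentiated gut cells, rose by 1.38 ± 0.12. Among 11 hydrolases kept, 6 were higher and 3 lower (81.8% called), with MME (1.23 ± 0.08), TMPRSS4 (1.25 ± 0.11) and ENPP3 (1.19 ± 0.13) higher and the carboxylesterase gene CES1 lower (-1.78 ± 0.10; 2.32 and 3.05 scaled TPM at 72 h, against 11.7 and 11.5 at 0 h). Of 18 lipid genes 7 were higher and 4 lower (61.1% called in either direction, near the share of all genes). By direction 38.9% were higher and 22.2% lower, against 24.2 and 28% of all genes. The acyl-CoA synthetase gene ACSL5 (2.37 ± 0.09), the fatty acid receptor gene CD36 (1.73 ± 0.09), the cholesterol exporter gene ABCA1 (1.46 ± 0.10) and the apolipoprotein gene APOC2 (1.14 ± 0.08) rose. ACSL5 had 23.1 scaled TPM in both 72 h libraries, against 3.57 and 3.77 at 0 h. Of 13 ion and water transport genes 5 were higher and 1 lower (46.2% called in either direction, below the share of all genes). By direction 38.5% were higher, AQP7 counted, and 7.69% lower, against 24.2 and 28% of all genes. The 5 included the potassium channel gene KCNN4 (1.80 ± 0.09), the sodium channel subunit gene SCNN1A (0.79 ± 0.08) and the aquaporin gene AQP7 (0.89 ± 0.14). Of 8 nutrient transporters kept, 4 were higher and 3 lower (87.5% called), among them the iron exporter gene SLC40A1 (1.43 ± 0.09) and the zinc transporter gene SLC39A4 (0.73 ± 0.11), while the glutamine transporter gene SLC1A5 (-0.50 ± 0.04) and the lactate transporter gene SLC16A1 (-0.41 ± 0.07) fell. Each 72 h change given here with its SE had a limma adjusted p of at most 0.000743.

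Markers of other cell types moved at 72 h too. The 6 fibroblast genes summed to 43.8 to 49.3 scaled TPM at 72 h, against 9.91 to 11.9 at 0 h, most of it LUM (42.9 and 36.2 at 72 h). The 3 of them kept were all higher at 72 h, LUM by 2.07 ± 0.10 (BH-adjusted p = 3.4e-07), COL3A1 by 1.75 ± 0.12 (BH-adjusted p = 3.15e-06; it passed the filter through the 72 h libraries alone) and COL1A1 by 0.73 ± 0.21 (BH-adjusted p = 0.0149). Below the filter, COL1A2 had 0.868 and 0.965 scaled TPM at 72 h, against 0.152 and 0.15 at 0 h. DCN had 0.391 and 0.635 at 72 h, against 1 and 0.141 at 0 h, its highest library being a control. PDGFRA was at most 0.123. The 6 leukocyte genes summed to 21.4 to 25 at 72 h, against 2.31 to 3.74 at 0 h, nearly all CD68 (20.8 and 23.5 at 72 h), while PTPRC was at most 0.77 and CD3E at most 0.114. Of 9 goblet cell genes 1 was kept, TFF3, which was higher at 48 h (0.54 ± 0.14, limma adjusted p = 0.0223) and lower at 72 h (-0.70 ± 0.14, limma adjusted p = 0.00248). Below the filter, AGR2 had 1.2 and 1.06 scaled TPM at 72 h, against 0.0852 and 0 at 0 h, and MUC2 had 0.382 and 0.208 at 72 h, against 0.0284 and 0.0188 at 0 h, with SPINK4 and CLCA1 at 0 in every library. The 7 hepatocyte genes summed to 5.52 to 8.1 at 72 h, against 4.39 to 4.69 at 0 h, with TTR at 0. Of the 2 kept, SERPINA1 was higher at 48 h (0.73 ± 0.13, limma adjusted p = 0.00446) and 72 h (0.75 ± 0.13, limma adjusted p = 0.00111). ALB was not called at 72 h (-0.12 ± 0.23, limma adjusted p = 0.677). The part of these markers in the members' changes was not tested.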

How the data were processed

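Total RNA of 8 SW480 libraries was analysed, 2 in each of 4 groups. The authors deposited TPM per gene; the submitters' processing notes name RSEM, STAR, Trimmomatic, FastQC, Picard and SAMtools and the build hg19. Annotation, tool versions and strand setting: not given in the sources used here. Because TPM holds no read depth, counting error is unknown. The labels speak of 3 treated replicates, and 2 libraries per group were analysed here. Separate cultures are not stated for the replicates, so the p-values reflect the spread of these libraries alone, which may be technical.

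For scaling, each library was divided by the median, over genes above 0 in all 8, of its ratio to their geometric mean. Genes were kept where the deposited TPM reached 1 in at least 2 libraries (11894), and log2(scaled TPM + 1) was fitted with limma 3.58.1 (R 4.3.3) in 1 model of all libraries (4 residual degrees of freedom, mean-variance trend, two-sided, Benjamini-Hochberg over all genes kept, threshold 0.05). A fold on this scale understates the change of low genes. Scaling was used because on TPM as deposited limma's prior degrees of freedom were infinite, so a gene's own spread did not enter its SE; after scaling they were 5.48. The members and gene lists were chosen with earlier results of these data known. All members were described, and of each list of other pathway genes up to 4 with the smallest p at 72 h were named, except 1 that is not reported here; alternatives changed the scaling, filter, pseudocount, variance trend, threshold and libraries. Overlapping genes were read from GENCODE 29.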

Additional observations from a re-analysis of the deposited data

How the results depend on the processing

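Over 105 changes of single members and 1860 values under alternatives, 1748 kept their side of the threshold, 98 lost a call, 14 gained one and 0 called values changed sign. Of the 1748, 45 had the other sign than in the main test, with no call in either. The number of members called against 0 h or between times stood within 1.5 times its value under most alternatives. At 24 h against 0 h it was 3, and 0 without a filter, 1 without a variance trend, 0 at a threshold of 0.01 and 1 with a 2-fold minimum. With a 2-fold minimum it was 5 at 48 h (13 in the main test), 7 at 72 h (16), 1 at 48 h against 24 h (11) and 0 at 72 h against 48 h (8). At a threshold of 0.01 it was 6 at 48 h against 24 h and 5 at 72 h against 48 h. On TPM as deposited it was 5 at 72 h against 48 h. Leaving out 1 library gave 0 to 3 at 24 h, 9 to 13 at 48 h, 14 to 16 at 72 h, 6 to 11 at 48 h against 24 h and 6 to 9 at 72 h against 48 h, where the library left alone was taken to vary as much as the rest. Without the second 72 h library, which stands apart in its listed sum, it was 3, 13, 16, 11 and 8. The cause of these differences was not tested, beyond the stricter thresholds and fewer samples.

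With the replicate number as a block it was 2, 12 and 16 at the 3 times, 9 at 48 h against 24 h and 9 at 72 h against 48 h. Differences between the libraries numbered 1 and 2 correlated across genes at -0.086 to 0.107 between groups, so the numbers were not shown to pair the libraries.

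The number of members reaching 1 TPM was 21 as deposited, 22 after scaling (SI added), 24 in at least 1 library, and 15 at a minimum of 5 TPM. Counts over all genes varied more. At 24 h they were 124 in the main test, 15 without a filter, 55 as deposited, 23 without a trend, 10 at a threshold of 0.01 and 2 with a 2-fold minimum, and 3 to 276 without 1 library. At 48 h they were 2783, with 922 as deposited, 1283 at 0.01, 76 with a 2-fold minimum and 1364 to 3192 without 1 library. At 72 h they were 6213, with 547 at a 2-fold minimum. At 48 h against 24 h they were 1709, with 597, 580 and 40 as deposited, at 0.01 and with a 2-fold minimum, and 604 to 2064 without 1 library. At 72 h against 48 h they were 4771, with 2827 at 0.01, 145 with a 2-fold minimum and 3143 to 4587 without 1 library. Library depth is unknown, which limits members below 1 TPM most.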

Other observations

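Some markers of other intestinal lineages, none of them a member, also passed the test. LYZ, the lysozyme gene of Paneth cells, had 1.88 and 2.03 scaled TPM at 0 h, 2.33 and 1.84 after 24 h, 4.1 and 4.54 after 48 h, and 7.58 and 8.82 after 72 h, a log2 change of 1.64 ± 0.12 at 72 h (limma adjusted p = 5.26e-06). DEFA5, a Paneth cell defensin gene, had 80.4 and 85.7 scaled TPM at 0 h, 86.6 and 88 after 24 h, 130 and 120 after 48 h, and 117 and 89.4 after 72 h, a log2 change of 0.30 ± 0.10 at 72 h (adjusted p = 0.0353), and its 72 h libraries lay far apart. DCLK1, a tuft cell marker, rose by 0.83 ± 0.11 at 72 h (adjusted p = 0.00022), while the other kept tuft genes, SH2D6 (-0.30 ± 0.15, adjusted p = 0.12) and AVIL (-0.08 ± 0.15, adjusted p = 0.68), were not called. NEUROD1, an enteroendocrine transcription factor gene and the 1 kept of its list, rose by 0.82 ± 0.13 (adjusted p = 0.00051). The enteroendocrine list summed to 3.06 to 3.56 scaled TPM at 72 h, against 1.39 to 1.88 at 0 h, and the tuft list to 6.45 to 7.11 at 72 h, against 5.07 to 5.5 at 0 h.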
